A study of Arabidopsis thaliana with 7 samples.

Results

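The 9 heat shock protein genes and 1 heat shock factor gene described here were named by gene identifier: HSP101, HSP70-4, HSP90.1, HSFA2, HSP17.6II, HSP17.6A, HSP21, HSP18.2, HSP17.4 and HSP22. All 10 were found among the 32548 genes of the deposited count table, and all 10 passed the filter on low counts. The RNA came from whole Arabidopsis thaliana seedlings 10 days after germination, raised at 22 °C on MS agar in long days, with 16 h of light followed by 8 h of dark. Col-0 plants served as WT, with 2 libraries, and the mutant named hon45 gave the other 2. Its name refers to HON4 and HON5, chromatin proteins related to linker histones. The labels give neither the alleles nor any heat treatment, so every value below is a level in seedlings kept at their growth temperature. Nothing in the labels says that the replicates came from separate cultures, so p-values measure the spread between these libraries, which may be technical.

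Heat shock proteins are molecular chaperones that bind proteins as they unfold. The small heat shock proteins hold unfolded clients, the HSP70 and HSP90 families refold or stabilise them, and HSP101, an AAA+ disaggregase of the HSP100 family, pulls proteins back out of aggregates and is required for acquired thermotolerance in Arabidopsis. Heat shock factors switch these genes on through heat shock elements in their promoters; HSFA2 is itself induced by heat and prolongs the response, and several of the chaperones also accumulate in maturing seeds.

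Libraries held 53858439 to 63543079 counts. HON5 fell by 2.66 on the log2 scale in hon45 and HON4 fell by 1.34 (edgeR quasi-likelihood test), so the libraries matched their genotype labels. In the same test 1199 of 29226 genes passed an adjusted p under 0.05. One library stood apart at low expression: over the 9405 tested genes with a mean under 2 CPM (counts scaled to a common library size with TMM factors), the median log2 ratio of hon45 replicate 2 to hon45 replicate 1 was −0.55, against −0.04 for WT replicate 2 to WT replicate 1. At 2 CPM and above these medians were 0.04 and 0.00 over 19821 genes. Of the 10 heat shock genes, HSP17.6II, HSP17.6A, HSP21, HSP17.4 and HSP22 lay under 2 CPM, and their log2 differences are given below with and without that library.

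None of the 10 heat shock genes passed the test between genotypes. Their adjusted p-values ran from 0.563 to 0.973 (edgeR quasi-likelihood test), against 4.1% of all tested genes that passed, 2.48% higher and 1.63% lower in hon45. At an unadjusted p under 0.05 the edgeR quasi-likelihood test also gave 0 of 10, against 17.9% of all tested genes, and DESeq2 also gave 0 of 10. The edgeR exact test and limma-voom called 0 of 10, against 1608 and 1291 of all 29226 genes. DESeq2 gave an adjusted p for 3 of the 10 and called 0, against 1072 of all 29226 genes. The log2 differences of the 10 genes, hon45 over WT, were above 0 for 5 genes and below 0 for 5. The median was −0.01 and the mean −0.14, beside a median of −0.04 over all tested genes. Intervals were mostly wider for genes of lower level, so the difference the data could still hide was not the same for each gene. The 95% intervals of HSP70-4, HSP90.1 and HSP101 excluded a 1.5-fold difference in either direction, those of 7 genes excluded a 2-fold difference, and those of HSP17.6II, HSP21 and HSP22 reached past 2-fold lower.

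**Figure D1:**
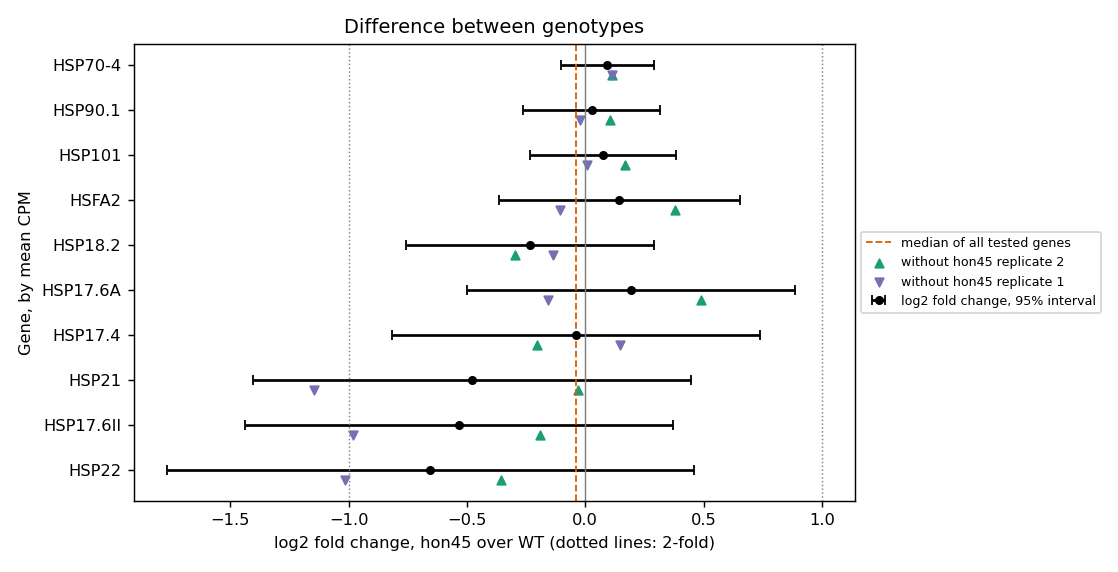
Log2 fold change of each heat shock gene, hon45 over WT (x axis), with genes ordered by mean CPM (y axis); black points and bars are the edgeR estimate and its 95% interval from 2 libraries per genotype, triangles are the estimates without hon45 replicate 1 or 2, the dashed line is the median of all tested genes and dotted lines mark 2-fold. Every interval spans 0, and intervals widen toward the genes of low level at the bottom. Leaving out 1 hon45 library moves the estimates of HSP21 and HSP17.6II most, and that of HSP17.4 less than that of HSFA2.

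Transcript levels per length spanned 70.4-fold between the highest and the lowest of the 10 genes. By FPKM (fragments per transcript length and library size, as deposited), HSP70-4 stood far above the others, at 33.6 to 37.1 over the 4 libraries, and 87.5% of the genes listed had a lower mean. HSP90.1 (4.14 to 4.96 FPKM) and HSP18.2 (3.53 to 4.74 FPKM) followed, with ranges that overlapped. HSP17.6A (2.22 to 4.09 FPKM) overlapped HSP18.2 above it and HSP101 (2.47 to 2.87 FPKM) below it. HSFA2 (1.69 to 2.14 FPKM) lay below every value of these 4 genes. HSP17.4 lay at 1.44 to 1.67 FPKM, below every HSFA2 value, and within the wider range of HSP17.6II at 0.705 to 1.74 FPKM. HSP21 and HSP22 were lowest, at 0.264 to 0.903 and 0.26 to 0.717 FPKM, and their ranges overlapped. About 1 in 3 listed genes had a lower mean than either of them (34.8% for HSP21 and 33.1% for HSP22).

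**Figure D2:**
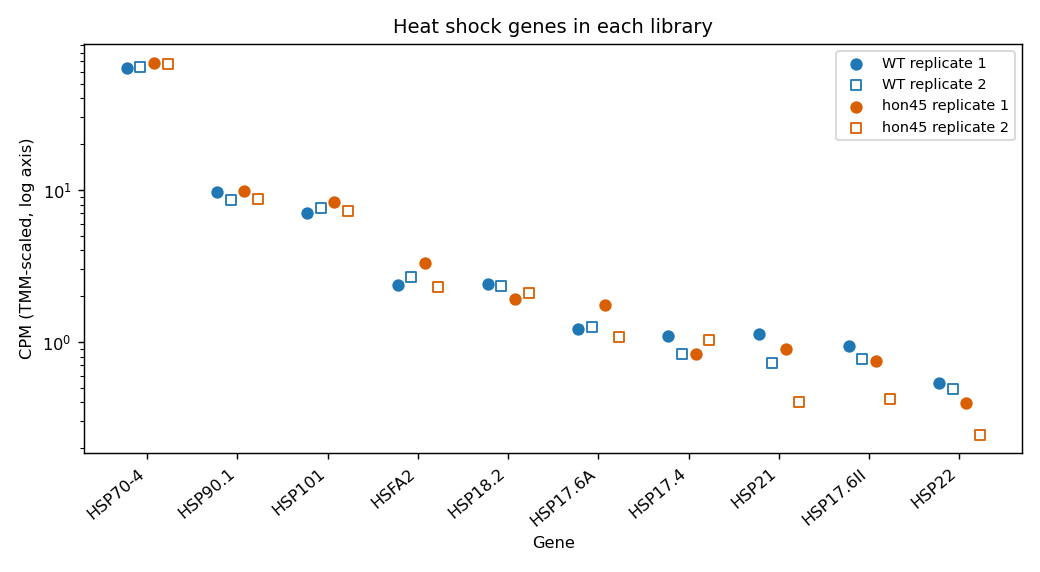
CPM of each heat shock gene on a log axis (y axis) in the 2 WT libraries (blue) and the 2 hon45 libraries (orange), with replicate 1 as filled circles and replicate 2 as open squares. The libraries lie within a narrow range for HSP70-4, HSP90.1 and HSP101, and hon45 replicate 2 is the lowest point for HSFA2, HSP17.6A, HSP21, HSP17.6II and HSP22.

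The large ATP-dependent chaperones were the best measured. HSP70-4 (AT3G12580; TAIR10 chromosome 3, 3991261 to 3993792), a cytosolic HSP70 that refolds proteins and is strongly induced by heat, stood at 63.2 and 64.4 CPM in WT and 68.8 and 67.3 CPM in hon45. Both hon45 libraries lay above both WT libraries, the 1 gene of the 10 with that arrangement, which 23.1% of all tested genes shared. The log2 difference was 0.09 (SE 0.09, 95% interval −0.10 to 0.29, edgeR quasi-likelihood adjusted p = 0.667), so a level between 0.93 and 1.22 times that of WT was within the interval.

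HSP90.1 (AT5G52640; chromosome 5, 21352399 to 21355361), the heat-inducible member of the cytosolic HSP90 chaperones, stood at 9.66 and 8.53 CPM in WT and 9.76 and 8.73 CPM in hon45. The genotypes overlapped almost completely, replicate 1 being the higher library in each. Its log2 difference was 0.03 (SE 0.14, interval −0.26 to 0.32, edgeR adjusted p = 0.949). HSP101 (AT1G74310; chromosome 1, 27935298 to 27940190) stood at 7.09 and 7.63 CPM in WT and 8.28 and 7.22 CPM in hon45, with hon45 replicate 2 between the WT libraries. Its log2 difference was 0.07 (SE 0.15, interval −0.24 to 0.38, edgeR adjusted p = 0.848). HSP101 overlaps the end of AT1G74300, which had 293 to 353 counts beside the 384 to 500 of HSP101. Whether reads were counted by strand is not stated, so reads in the shared stretch cannot be assigned to either gene with certainty, and the locus printed for HSP101 spans both.

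HSFA2 (AT2G26150; chromosome 2, 11135682 to 11137396), the transcription factor of the group, had 129 and 170 counts in WT and 199 and 131 in hon45, or 2.38 and 2.67 CPM against 3.29 and 2.29 CPM. Its hon45 libraries enclosed both WT libraries. The hon45 replicates lay apart by more than counting error, since the exact Poisson 95% intervals were 2.85 to 3.78 CPM and 1.92 to 2.72 CPM; such intervals cover counting error only. The log2 difference was 0.14 (SE 0.24, interval −0.37 to 0.65, edgeR adjusted p = 0.815), and its sign followed the hon45 library kept, at 0.38 with replicate 1 alone and −0.11 with replicate 2 alone (edgeR adjusted p = 0.624 and 0.854).

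The small heat shock proteins, which act without ATP, together held 396 and 407 counts in WT and 394 and 302 in hon45. Summed over the 6 genes this was 7.32 and 6.39 CPM in WT against 6.52 and 5.28 CPM in hon45, with hon45 replicate 2 lowest. HSP18.2 (AT5G59720; chromosome 5, 24062577 to 24063277), a class I cytosolic protein, was the highest of the 6 by count. It stood at 2.40 and 2.32 CPM in WT and 1.92 and 2.1 CPM in hon45, with no overlap of the genotypes. Here hon45 replicate 1 was the lowest library, unlike most of the other small heat shock genes, and the log2 difference was −0.23 (SE 0.25, interval −0.76 to 0.29, edgeR adjusted p = 0.687).

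HSP17.4 (AT3G46230), also of cytosolic class I, stood at 1.09 and 0.833 CPM in WT and 0.828 and 1.03 CPM in hon45. The genotypes covered the same range, and the log2 difference was −0.04 (SE 0.37, interval −0.82 to 0.74, edgeR adjusted p = 0.973). Its value is uncertain because the gene holds the lncRNA gene AT3G07365, with 33 to 40 counts beside the 50 to 59 of HSP17.4, and overlaps the end of AT3G46220. The locus given for it, chromosome 3, 16979048 to 16984841, spans these neighbours.

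HSP17.6II (AT5G12020; chromosome 5, 3882237 to 3882938) and HSP17.6A (AT5G12030; 3884107 to 3884737) encode the class II cytosolic proteins and are neighbours, with 1168 bases between their loci. HSP17.6II stood at 0.942 and 0.77 CPM in WT and 0.745 and 0.42 CPM in hon45, or 51, 49, 45 and 24 counts, so that both hon45 libraries lay below both WT libraries. HSP17.6A stood at 1.22 and 1.26 CPM in WT and 1.74 and 1.08 CPM in hon45, with WT between the hon45 libraries. The log2 differences were −0.54 (SE 0.43, interval −1.44 to 0.37) for HSP17.6II and 0.19 (SE 0.33, interval −0.50 to 0.89) for HSP17.6A, with edgeR adjusted p-values of 0.563 and 0.818. The intervals of these neighbours overlap widely, and the difference between them was not tested. In both genes hon45 replicate 1 was above hon45 replicate 2, by 0.81 and 0.68 on the log2 scale.

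The organellar small heat shock proteins were HSP21 and HSP22. HSP21 (AT4G27670; chromosome 4, 13818870 to 13819971), which protects chloroplast membranes and photosystems under heat, stood at 1.13 and 0.723 CPM in WT and 0.894 and 0.402 CPM in hon45, from 61, 46, 54 and 23 counts. The genotypes overlapped, but the hon45 replicates did not overlap each other by counting error, at 0.671 to 1.17 and 0.255 to 0.604 CPM (exact Poisson 95% intervals). Its log2 difference was −0.48 (SE 0.44, interval −1.41 to 0.45, edgeR adjusted p = 0.628). The counts and FPKM of HSP21 imply a length of 1423 bases, longer than its locus of 1102 bases, so its CPM and FPKM values may not rest on the same reads. HSP22 (AT4G10250; chromosome 4, 6370343 to 6371291), a protein of the endomembrane system, had 29, 31, 24 and 14 counts, or 0.536 and 0.487 CPM in WT and 0.397 and 0.245 CPM in hon45. Both hon45 libraries lay below both WT libraries, and the log2 difference was −0.65 (SE 0.53, interval −1.77 to 0.46, edgeR adjusted p = 0.568).

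In all, 3 of the 10 genes (HSP17.6II, HSP18.2 and HSP22) had every hon45 CPM value below every WT CPM value, as had 26.2% of all tested genes. With HSP70-4, the genotypes were apart by CPM in 4 of 10 genes, against 49.3% of all tested genes.

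Log2 differences of the 5 heat shock genes under 2 CPM without hon45 replicate 2 are given below. A shift was not confined to them, as HSFA2, at a mean of 2.66 CPM, moved from 0.14 to 0.38 without that library. That library was the lowest of the 4 for 5 of the 10 genes, against 34.2% of all tested genes. Of the 5 genes under 2 CPM it was lowest for HSP17.6II, HSP17.6A, HSP21 and HSP22 but not HSP17.4, against 65.9% of the tested genes at that level. The 5 genes under 2 CPM had a median log2 difference of −0.48 between genotypes, and the 5 at or above it a median of 0.07. Tested genes at large ran the same way: the median difference between genotypes was −0.25 under 2 CPM, with 73.1% of those genes below 0, and 0.02 at or above 2 CPM.

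Gene by gene, the ratio of hon45 replicate 2 to replicate 1 was close to that of genes of similar level for HSP22, at −0.68 against a median of −0.71 for genes under 0.5 CPM. It was lower than the median of −0.62 for genes from 0.5 to 1 CPM in HSP21 (−1.14) and HSP17.6II (−0.81), while HSP17.4, at a similar level, went the other way at 0.32. HSP17.6A stood at −0.68 against −0.41 for genes from 1 to 2 CPM. HSFA2 stood at −0.52 and HSP18.2 at 0.13 against −0.13 for genes from 2 to 5 CPM. Between the WT libraries the same ratio ran from −0.64 in HSP21 to 0.16 in HSFA2.

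Without hon45 replicate 2 the log2 differences of HSP21, HSP17.6II and HSP22 were −0.03, −0.19 and −0.36. Without hon45 replicate 1 they were −1.15, −0.98 and −1.02. HSP17.6A stood at 0.49 without hon45 replicate 2 and −0.16 without hon45 replicate 1, and HSP17.4 at −0.20 and 0.15, so that the sign of both turned. In the fit without hon45 replicate 1 HSP21 and HSP17.6II had unadjusted p-values of 0.0222 and 0.0405 and edgeR adjusted p-values of 0.183 and 0.232, where 19.6% of all tested genes had an unadjusted p under 0.05. With the trend of each library on expression level removed, an alternative chosen after the data were seen, HSP21, HSP17.6II and HSP22 stood at −0.22, −0.26 and −0.34, and the 10 genes ranged from −0.34 to 0.39 with 0 called.

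**Figure D3:**
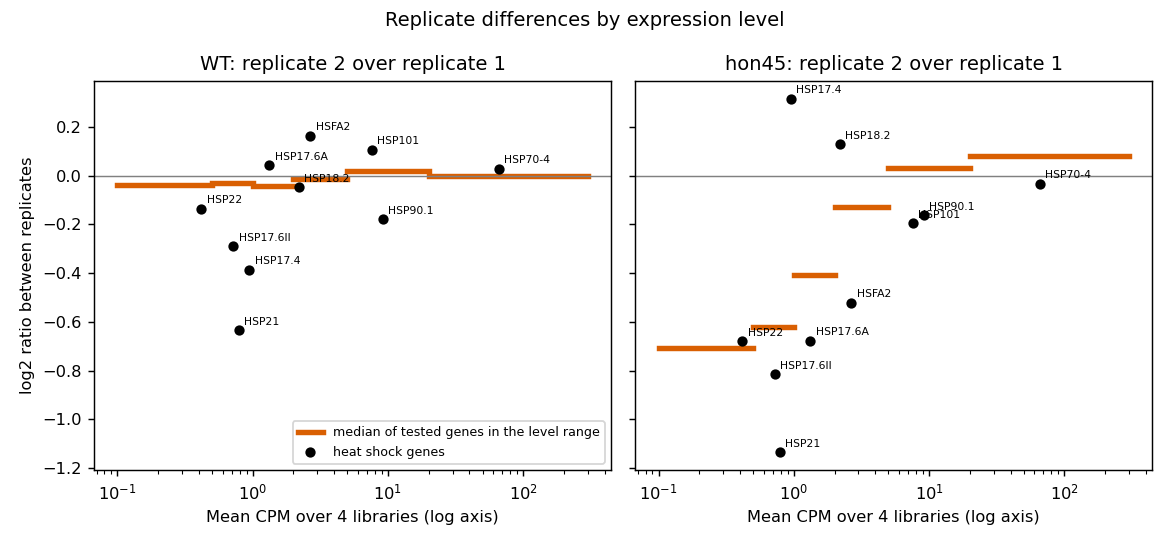
Log2 ratio of replicate 2 to replicate 1 (y axis) against mean CPM on a log axis (x axis), for WT (left) and hon45 (right); points are the heat shock genes and orange bars the median of tested genes in each range of level. In WT the bars lie near 0 at every level, while in hon45 they drop to −0.71 under 0.5 CPM, and HSP22, HSP17.6II, HSP17.6A and HSP21 lie at about −0.68 or lower.

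On the deposited FPKM values no heat shock gene was called either. Of the 10 genes, 8 reached 1 FPKM in at least 2 libraries, and 0 were called by limma-trend on log2(FPKM + 1), a scale that understates the change of low genes, against 0.621% of the 19493 genes tested; 0 had an unadjusted p under 0.05. The smallest unadjusted p-values were 0.0592 for HSP18.2 (4.74 and 4.31 FPKM in WT, 3.74 and 3.53 in hon45, log2 difference −0.25) and 0.0682 for HSP17.6A (2.22 and 2.43 FPKM in WT, 4.09 and 2.66 in hon45, log2 difference 0.38), with limma-trend adjusted p-values of 0.234 and 0.249 (n = 2 per genotype). On FPKM the HSP17.6A genotypes were apart, both hon45 libraries above both WT libraries, whereas on counts they overlapped. HSP21 overlapped on counts, but both its hon45 libraries were lower on FPKM (0.903 and 0.534 in WT, 0.515 and 0.264 in hon45). HSP17.6II was apart on counts but overlapped on FPKM (1.74 and 1.00 in WT, 1.22 and 0.705 in hon45). HSP70-4, HSP18.2 and HSP22 were apart on both measures, and HSP101, HSP90.1, HSFA2 and HSP17.4 overlapped on both. The share of all genes with genotypes apart on FPKM is not given here. Apart from HSP18.2 and HSP17.6A, the other 6 tested genes had log2(FPKM + 1) differences from −0.27 in HSP17.6II to 0.08 in HSP70-4. HSP21 and HSP22 did not reach the level filter; HSP22 stood at 0.667 and 0.717 FPKM in WT and 0.355 and 0.26 in hon45. Without the filter it was the 1 heat shock gene with an unadjusted p under 0.05, and 0 were called by limma-trend. In the filtered fit with a replicate block 1 of the 8 had an unadjusted p under 0.05 by limma-trend, and 0 were called. The share of all genes at an unadjusted p under 0.05 on FPKM is not given here.

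Over the 6 heat shock genes that averaged 1 CPM or more, the median profile was shallow, at −0.07 and −0.01 in the WT libraries and 0.11 and −0.07 in the hon45 libraries, as log2 deviations from each gene's mean. Among 15589 other genes that averaged 5 CPM or more, the 5 nearest to it over these 4 libraries were AT3G54250, AT4G15520, HCA2, FRS2 and AT5G53010, with root mean square differences of 0.01 to 0.02 on the log2 scale. With 4 libraries and a profile this flat, many genes can lie close.

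The wider heat shock machinery was followed in 7 lists with 85 other genes, of which 5 rose and 1 fell. Of all tested genes 2.48% rose and 1.63% fell. None of 20 other heat shock factor genes passed the edgeR quasi-likelihood test (4 at an unadjusted p under 0.05; median log2 difference 0.00), from −0.49 in HSFA6A to 0.40 in HSFA5. None of 14 other small heat shock protein genes passed (0 at an unadjusted p under 0.05; median −0.09), from −0.79 in HSP14.7 (AT5G47600) to 0.72 in HSP26.5. None of 18 co-chaperone genes passed (5 at an unadjusted p under 0.05; median 0.10), from −0.12 in CHIP to 0.43 in HOP2, and 15 lay above 0. None of 9 other heat-responsive genes passed (0 at an unadjusted p under 0.05; median 0.05), from −0.42 in JUB1 to 0.08 in HSP60. DESeq2 gave 0 calls in each of these 4 lists. The edgeR exact test and limma-voom each called 1 co-chaperone gene and 0 in the other lists. Over all 29226 genes DESeq2 called 1072, the edgeR exact test 1608 and limma-voom 1291.

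The called genes were in the HSP70, HSP90 and HSP100 families to which HSP70-4, HSP90.1 and HSP101 belong. At an unadjusted p under 0.05 the edgeR quasi-likelihood test gave 5 of 13, 5 of 5 and 4 of 6 other genes of these families. The share over all tested genes was 17.9%. At an adjusted p under 0.05 DESeq2 and limma-voom each called 3, 2 and 3 of them, against 1072 and 1291 of all 29226 genes. HSC70-2 (AT5G02490), a cytosolic HSP70 like HSP70-4, was the 1 that fell, from 39.5 and 36.7 CPM in WT to 22.0 and 23.7 CPM in hon45. Its log2 fold change was −0.74 (SE 0.10, edgeR adjusted p = 0.00048), and −0.82 on log2(FPKM + 1) (limma-trend adjusted p = 0.0274). It stayed past the threshold in each of 17 alternative fits of the counts, at −0.88 to −0.65. Cytosolic HSP70 genes are similar in sequence and HSC70-1, the abundant constitutive copy, stood at 1713 ± 61.7 CPM (SD, n = 2) in WT and 1795 ± 121 in hon45, so reads could be split between copies and the level of HSC70-2 is uncertain.

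Among the other HSP70 genes cpHSC70-1 and cpHSC70-2, the HSP70s of the chloroplast stroma, rose by 0.44 and 0.45 on the log2 scale (edgeR adjusted p = 0.0318 and 0.0174), the 2 of 13 that rose. The plastid HSP90.5 rose by 0.50 (adjusted p = 0.0337 in that test), the 1 called of 5 other HSP90 genes; all 5 lay above 0 with a median of 0.34. CLPB3, the plastid relative of HSP101, rose by 0.46 and CLPC2, a plastid HSP100 protein of protein import and turnover, by 0.51 (adjusted p = 0.017 and 0.0134 in that test), the 2 called of 6. The WT libraries lay apart for HSP90.5, at 37.4 and 55.2 CPM, and without WT replicate 1 its log2 difference was 0.25 (edgeR adjusted p = 0.221), without WT replicate 2 it was 0.82, and that of cpHSC70-1 without WT replicate 1 was 0.29 (edgeR adjusted p = 0.145). Of these 5 plastid genes 0 passed by limma-trend on FPKM, where 0.621% of all tested genes passed. In the count fits their log2 differences were 0.50 to 0.58 without hon45 replicate 1 and 0.37 to 0.51 without hon45 replicate 2. With the length trend of genes from 5 CPM removed cpHSC70-2 was the 1 that passed, and CLPB3 stood at 0.29 (edgeR adjusted p = 0.0954). With that of genes from 1 CPM removed cpHSC70-2 and CLPC2 passed, and cpHSC70-2 and CLPB3 passed both with at least 5 CPM in 2 libraries and with the level trend removed. HSP90.5 was also not called with library totals in place of TMM (edgeR adjusted p = 0.0709). The values of cpHSC70-2, CLPC2 and CLPB3 are uncertain because these genes overlap other counted genes.

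**Figure D4:**
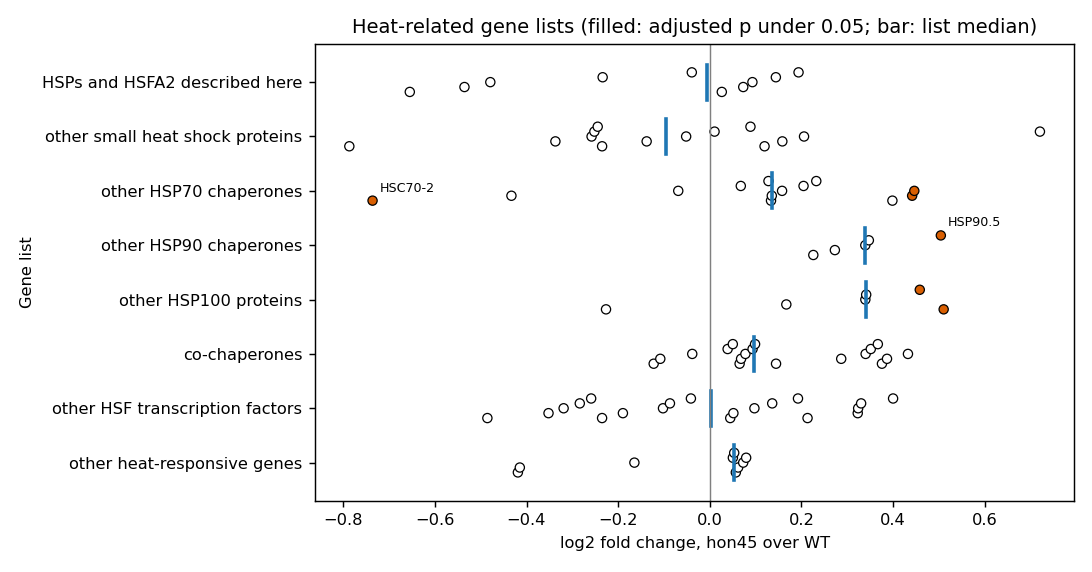
Log2 fold change of single genes, hon45 over WT (x axis), in the heat-related gene lists (y axis); filled points passed an adjusted p under 0.05 by edgeR, open points did not, and blue bars are list medians. No point is filled for the heat shock genes described here, the other small heat shock proteins, the co-chaperones, the heat shock factors or the other heat-responsive genes.

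Marker genes of tissue and state moved beside these values, where 2.48% of all tested genes rose and 1.63% fell. Of 8 root markers 5 fell, among them EXP18 by 0.61, TIP2;3 by 0.57, PRP3 by 0.52 and CASP1 by 0.51 on the log2 scale. The other 3 root markers lay above 0, by up to 0.25. The summed level of the 8 was 3406 and 3789 CPM in WT and 4066 and 4159 CPM in hon45. PYK10, which made up most of that sum, stood at 3059 to 3918 CPM and was not called. Of 7 shoot markers 1 rose, CA1 by 0.71, with a summed level of 29692 to 34671 CPM in WT and 35587 to 36853 CPM in hon45. The WT libraries of CA1 lay apart, at 604 and 979 CPM, and its log2 difference was 0.41 without WT replicate 1 (edgeR adjusted p = 0.231) and 1.11 without WT replicate 2. CA1 was also not called by DESeq2 (adjusted p = 0.220), with at least 5 CPM in 2 libraries or with the level trend removed. Of 8 seed-stage markers 2 fell, ICL by 1.76 and EM6 by 1.27 on the log2 scale. The summed level of the 8 was 19.4 to 23.2 CPM in WT and 9.0 to 10.3 CPM in hon45. ICL made up most of that sum in WT, at 15.5 and 11.5 CPM, and stood at 3.51 and 4.48 CPM in hon45. Of the 8, 7 averaged under 2 CPM, where 73.1% of all tested genes lay below 0. With any single library left out the log2 difference of EM6 stayed at −1.31 to −1.23, but it was not called (edgeR adjusted p from 0.0765 to 0.231); ICL was called each time. Of 8 genes of acute stress response 1 fell, ERF6 by 0.77, and 0 rose, at 89.1 to 102 CPM summed in WT and 78.9 to 88.3 CPM in hon45, and of 6 clock genes 1 rose, PRR7 by 0.62. The log2 differences of EXP18, TIP2;3, PRP3 and CASP1 ran from −0.66 to −0.42 without hon45 replicate 2 and from −0.70 to −0.37 without hon45 replicate 1. Those of CA1, ERF6 and PRR7 were 0.67, −0.73 and 0.63 without hon45 replicate 2. Without hon45 replicate 1 they were 0.79, −0.77 and 0.64. In bulk seedlings fewer cells of a type and less RNA per cell cannot be told apart. The part of these shifts in the values of the heat shock genes was not tested.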

How the data were processed

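The raw gene counts were deposited by the authors with 1 column per library, not normalized and not pooled; FPKM values were deposited with 1 file per library, per the file headers. Libraries were made from poly(A) RNA, per the labels' protocols. HISAT2, Bowtie2, edgeR, deepTools and TAIR10 are listed in the submitters' processing notes; neither the counting program nor its annotation is named in the labels or headers. The 3 ChIP samples were not analysed here. Coordinates are those of the FPKM files with 1 added to the start; names and overlaps came from a RefSeq table of TAIR10.1, used for no printed position.

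Counts were filtered with filterByExpr, scaled by TMM and tested in R 4.3.3 with edgeR 4.0.16 (glmQLFit with legacy = FALSE, glmQLFTest, group as the only term, 2 residual degrees of freedom), with Benjamini-Hochberg adjustment over 29226 genes. The SE was derived from the F statistic (size of the log2 fold change divided by its root), and intervals use the total degrees of freedom. The fit was tested on simulated data. FPKM was tested with limma-trend (limma 3.58.1) after adding a pseudocount of 1 and taking log2, keeping genes that reached 1 FPKM in at least 2 libraries. Alternatives included other scalings, filters and tests (DESeq2 1.42.0, limma-voom, the edgeR exact test), overlapping genes left out, a gene-length trend removed, a level trend removed and the older quasi-likelihood method (the last 2 chosen after the data were seen), a replicate block and each library left out. A multigene family such as the HSP70s or class I small heat shock proteins can share reads.

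The 10 genes and the lists were chosen with earlier results of these data known. Named are these 10, HON4 and HON5, up to 4 called genes per list with the smallest p or else the lowest and highest, and the 5 nearest profiles; HSC70-1 and PYK10 were chosen after their values were seen.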

Additional observations from a re-analysis of the deposited data

How the results depend on the processing

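Under each of 18 alternative settings of the count analysis (other fits, and an adjusted p under 0.01) 0 of the 10 heat shock genes were called, and likewise in the 7 alternative FPKM fits; with at least 5 CPM in 2 libraries 3 of the 10 were tested, without overlapping genes 8, and DESeq2 gave an adjusted p for 3. Their median log2 difference ranged from −0.15 to 0.047 when 1 library was left out, a fit in which the lone library of a genotype is assumed to vary like the other genotype. The number of genes called was 325 at an adjusted p under 0.01, 724 with at least 5 CPM in 2 libraries, 693 with the length trend of genes from 1 CPM removed, 667 with the level trend removed (300 higher and 367 lower, against 724 and 475), and 119 to 3836 with 1 library left out. With the length trend of genes from 5 CPM removed 954 were called, 411 higher and 543 lower.

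Signs of small differences turned, none of them called. With the length trend of genes from 5 CPM removed HSP101 stood at −0.10, HSP70-4 at −0.016, HSP90.1 at −0.093, HSP17.4 at 0.029 and HSP60 at −0.014; with that of genes from 1 CPM removed HSP17.4 stood at 0.050. With the level trend removed HSP90.1 stood at −0.015 and HSP17.4 at 0.23, and with at least 5 CPM in 2 libraries HSP90.1 stood at −0.0081. With 1 library left out HSFA2 ranged from −0.11 to 0.38, HSP17.4 from −0.23 to 0.16, HSP17.6A from −0.16 to 0.49, HSP90.1 from −0.061 to 0.12, CHIP from −0.27 to 0.047, HSFA6A from −1.82 to 0.18 and HSP60 from −0.0071 to 0.18. The cause was not tested.

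Libraries with the same replicate number did not deviate together (correlation 0.03 over 22801 genes). That correlation sets the difference between the WT libraries beside that between the hon45 libraries. The latter held the shift of hon45 replicate 2 at low expression, so the correlation cannot decide whether the numbers pair the samples. With a replicate block 1767 genes were called, 0 of the 10 heat shock genes, and the median of these 10 was −0.01. A 2-fold fall was within the intervals of HSP17.6II, HSP21 and HSP22, which had 98 to 184 counts over the 4 libraries; the part of depth in the width of these intervals was not tested.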
